A study of Homo sapiens with 9 samples.

Results

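The unedited H358 line was described from the 3 libraries labelled parental, out of 9 libraries in the series; the other libraries were 3 from cells with a CRISPR knockout of BRG1 and 3 from cells with a CRISPR knockout of BRM. BRG1, encoded by SMARCA4, and BRM, encoded by SMARCA2, are the alternative ATPases of the SWI/SNF chromatin remodelling complexes, and by label neither gene was edited in the parental cells. Total RNA was sequenced from cultures in serum-supplemented RPMI, and no treatment was labelled. The labels do not say whether a knockout group is a clone or a pool, nor whether the 3 libraries of a group came from separate cultures, so every SD and p-value below measures the spread between these libraries, which may be technical.

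H358 is an established human line of non-small cell lung carcinoma with features of bronchioloalveolar cells. The MAPK cascade carries growth signals from surface receptors through small GTPases and kinases to the nucleus. In normal distal airway, NKX2-1 and FOXA factors direct the production of surfactant and secretoglobin proteins, while keratins and junction proteins hold the epithelial sheet together. NRF2, encoded by NFE2L2 and held in check by KEAP1, induces enzymes that handle oxidants and make NADPH.

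The parental libraries held 31969961, 37356292 and 40172192 estimated reads for replicates 1, 2 and 3. Levels are given in TPM, a unit scaled for sequencing depth and transcript length that can be compared between genes. The departure of replicate 1 from the other parental libraries is given in CPM, read counts scaled for depth only, with TMM factors. Replicate 1 stood apart from the other libraries: the chi-square statistic per degree of freedom over gene counts was 63.0 between replicates 1 and 2 and 50.8 between replicates 1 and 3, against 11.2 between replicates 2 and 3. Each level below is therefore given by library. No pair of parental libraries agreed within counting error, so all 3 were kept as separate samples.

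The epithelial markers that define the line were present and those of other cell types were low. EPCAM, an epithelial adhesion molecule, stood at 550, 503 and 519 TPM, and the keratins KRT8, KRT18, KRT19 and KRT7 each stood above 1000 TPM in every library. Among 13 blood cell markers, 11 were under 1 TPM on average and 3 had 0 reads, among them CD3D and MS4A1. CD68, a lysosomal protein that many cell types also make, was the highest of them at 14.7, 25.3 and 14.6 TPM. All 8 endothelial markers were under 1 TPM, and 7 of 9 fibroblast markers were too. The exceptions among the fibroblast markers were COL1A1, a fibrillar collagen chain, at 22.3, 12.5 and 12.8 TPM, and LUM, a matrix proteoglycan, at 20.9, 12 and 8.26 TPM. DCN, another proteoglycan of fibroblasts, was at 0.0359, 0 and 0 TPM.

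The transcriptome of the parental cells was led by actin, mitochondrial, ribosomal and thymosin genes. A mean of at least 1 TPM was reached by 14731 of 58237 genes, of which 12291 encode proteins, and 14726 genes reached it without replicate 1. A mean of at least 100 TPM was reached by 1535 genes, and 147 genes reached 1000 TPM. In all 3 libraries 30674 genes had 0 estimated reads, of which 3019 encode proteins. A count of 0 among the 109480074 reads of the 3 libraries allows a level of up to 0.0274 CPM, and this covers counting error only.

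ACTG1, cytoplasmic gamma-actin, was the most abundant protein-coding gene at 13303.4, 13578.9 and 11384.2 TPM, a mean of 12755.5 ± 1195.5 (SD, n = 3). MT-ND3, a mitochondrially encoded subunit of respiratory complex I, followed at 14893.9, 10731.9 and 11299.3 TPM. RPS27, a protein of the small ribosomal subunit, came next at 9478.0, 7918.5 and 8140.8 TPM. The order of ACTG1 and MT-ND3 was not the same in every library, since MT-ND3 was the higher of the pair in replicate 1 only. Of the 20 most abundant protein-coding genes, 8 are mitochondrial, 7 encode ribosomal proteins, and the other 5 are ACTG1, the actin-binding thymosins TMSB10 and TMSB4X, the translation elongation factor EEF1A1 and the ferritin heavy chain FTH1. EEF1A1 varied least of the genes named here, at 6689.1, 6630.8 and 6401.6 TPM. Actin, ribosomal protein and elongation factor genes have near-identical copies and pseudogenes, so the split of reads among such copies is uncertain.

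**Figure D1:**
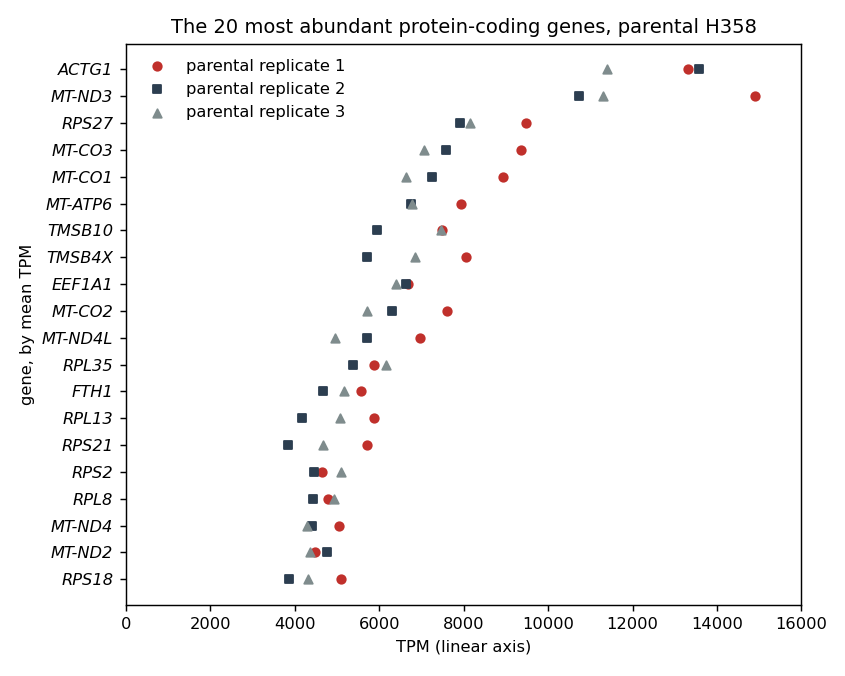
Level in TPM (linear horizontal axis) of the 20 most abundant protein-coding genes of parental H358, ordered by mean, with 1 point for each of the 3 libraries. ACTG1 and MT-ND3 lie to the right of all other genes in every library, and for 7 of the 8 mitochondrial genes replicate 1 is the right-most point.

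Among the 100 most abundant protein-coding genes, 55 encode ribosomal proteins, 12 are mitochondrial and 33 are neither. Glycolytic enzymes were among the 33: GAPDH stood at 2903.4, 4736.6 and 4569.7 TPM and PKM, a pyruvate kinase, at 2438.6, 3606.0 and 3469.3 TPM. DHRS2, a short-chain dehydrogenase of mitochondria and nucleus, ranked 55 at 1662.8, 2601.2 and 3008.9 TPM. MT2A, a metallothionein that binds zinc and copper, ranked 53 at 1685.6, 3314.0 and 2315.3 TPM. The chromatin protein gene HMGA1 ranked 84, KRT8 ranked 90 and the ferritin light chain gene FTL ranked 100. The 100 genes held 34.9%, 31.9% and 33.1% of all TPM in replicates 1, 2 and 3. Their median transcript length was 730 bases, against 2332 bases for all protein-coding genes of at least 1 TPM.

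Many of the most abundant genes start with a run of pyrimidines, the 5′ terminal oligopyrimidine feature of translation machinery transcripts. The search asked for a C as the first transcribed base followed by at least 4 further bases that are each C or T, on the transcribed strand, at the start annotated by RefSeq on GRCh38.p14. Such a start was found at 36 of the 70 promoters that matched the 100 genes (51.4%), at 31 of the 43 matched ribosomal protein promoters (72.1%), and at 1429 of all 35116 promoters in the RefSeq set (4.07%). The gene sets had a single promoter counted per gene, and the RefSeq set every entry. A match is a description of letters at an annotated start, and no match says only that the letters are not at that start. Windows of 25 bases, of which 15 lie before the start, are shown for 4 genes with such a start and for ACTG1 and TMSB10, which lack it, with the pyrimidine run from the first transcribed base in capitals. They lie at chr1:153990747-153990771 (plus strand) for RPS27, chr6:73521023-73521047 (minus strand) for EEF1A1, chr9:124861948-124861972 (minus strand) for RPL35, chr20:62387088-62387112 (plus strand) for RPS21, chr17:81512790-81512814 (minus strand) for ACTG1 and chr2:84905641-84905665 (plus strand) for TMSB10.
RPS27: atttccgctttcgctCCTTTCCggc
EEF1A1: gtcgccgtgaacgttCTTTTTCgca
RPL35: agccccgcctacttcCTCTTTCCCT
RPS21: ggtgactagctgcttCCTTTCTCTC
ACTG1: gaggccgcggtcggtctcagtcgcc
TMSB10: gggcgccgctcttttgtttcttgct

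Lung lineage factors were expressed in part, while the products of differentiated alveolar and club cells were mostly at or near 0. Of 31 lineage factors, 18 reached a mean of 1 TPM and 13 reached 10 TPM, with a median of 4.95 TPM. These shares were near those of all 19875 protein-coding genes, of which 12291 reached 1 TPM and 8549 reached 10 TPM. Counts for the lists below are to be read beside the same shares. NKX2-1, the homeobox factor of lung and thyroid, stood at 88.4, 56.1 and 63.3 TPM. FOXA2, a forkhead pioneer factor of endoderm, stood at 42.5, 24.9 and 24.9 TPM, and SOX2, a factor of proximal airway, at 33.8, 20.2 and 21.9 TPM. All 3 of these factors were highest in replicate 1. SOX9, a factor of distal lung progenitors, had the other order at 40.8, 72.3 and 55.2 TPM. The gut factors CDX2 and HNF4A were at 0 or under 0.1 TPM in every library, and the lung mesenchyme factor TBX5 had 0 reads.

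Of 23 alveolar and club cell products, 18 were under a mean of 1 TPM, 12 were under 0.1 TPM and 7 had 0 reads. SFTPB, a surfactant protein, was at 0, 0 and 0.0206 TPM, and SFTPC was at 0, 0.0516 and 0 TPM. The club cell secretoglobins SCGB1A1 and SCGB3A2 and the surfactant gene SFTPA1 had 0 reads in all 3 libraries. The list was held above 0 by genes that other cells also use: CAV1, a coat protein of caveolae listed for type I alveolar cells, stood at 157, 399 and 335 TPM, and LPCAT1, a lipid acyltransferase, at 74.9, 49.9 and 51.2 TPM. NAPSA, an aspartic protease of type II cells, was at 1.01, 0.402 and 0.817 TPM.

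Products of secretory airway and gut-like cells were present in part. Of 31 genes, 15 reached a mean of 1 TPM and 3 reached 100 TPM; the median was 0.847 TPM with all libraries and 0.290 TPM without replicate 1. AGR2, a disulfide isomerase of mucus-making cells, stood at 219, 137 and 144 TPM, and TMPRSS4, a membrane serine protease, at 182, 72.3 and 96.1 TPM. S100P, a calcium-binding protein, stood at 124, 99.2 and 114 TPM. The gel-forming mucin MUC5B was at 7.37, 2.74 and 7.02 TPM, while MUC5AC was at 0.269, 0.0940 and 0.137 TPM and MUC2 was under 0.01 TPM in every library. The trefoil factor TFF3 and the airway defence proteins BPIFA1 and BPIFB1 had 0 reads.

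Most squamous and neuroendocrine genes were under 1 TPM. Of 19 squamous and basal genes, 15 were under 1 TPM, among them KRT5 at 0.282, 0.0635 and 0.0150 TPM and DSG3, a desmosomal cadherin, at 0.0476, 0.0143 and 0.0577 TPM. The 4 exceptions were S100A2, TP63, KRT15 and KRT6A. S100A2, a calcium-binding protein of basal and squamous epithelium, was the highest of the list at 171, 119 and 162 TPM, and held most of the list's summed level in every library. TP63, the master factor of basal cells, stood at 26.2, 13.2 and 14.2 TPM. Its transcripts that start at the internal promoter and encode the shorter delta N protein summed to 21.3, 11.5 and 11.3 TPM, and those with the upstream start summed to 4.92, 1.74 and 2.91 TPM. The order of the starts was therefore the same in every library. Of 14 neuroendocrine genes, 10 were under 1 TPM, and the factors INSM1 and NEUROD1 had 0 reads in all 3 libraries. UCHL1, a ubiquitin hydrolase of neurons, was the highest of the list at 31.2, 21.8 and 24.0 TPM.

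**Figure D2:**
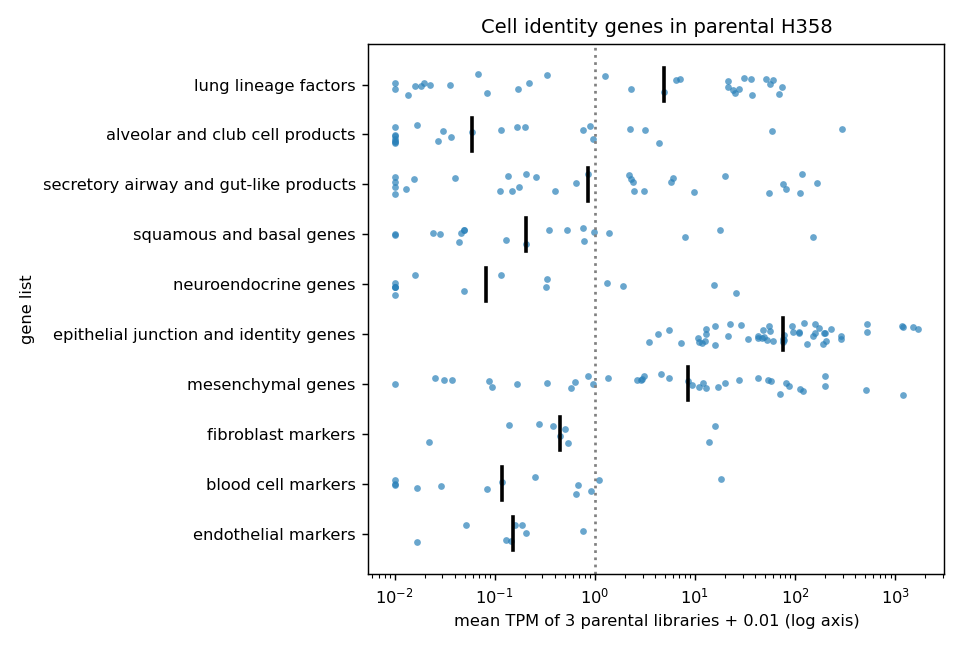
Mean TPM of the 3 parental libraries plus 0.01 (horizontal log axis) for the members of 10 gene lists, with 1 point per gene, a black bar at each list's median and a dotted line at 1 TPM. All 52 epithelial genes lie to the right of the dotted line, while 18 of 23 alveolar and club cell products lie to its left.

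Epithelial identity genes were expressed without exception. All 52 listed genes reached a mean of 1 TPM, 48 reached 10 TPM and 21 reached 100 TPM, with a median of 75.3 TPM. Among all 19875 protein-coding genes, 12291 reached 1 TPM. CDH1, the E-cadherin of adherens junctions, stood at 199, 205 and 181 TPM. CLDN4, a tight junction claudin, stood at 369, 236 and 263 TPM, and the splicing regulator ESRP1 at 105, 112 and 115 TPM. The epithelial transcription factor genes GRHL2 and OVOL2 stood at 39.6, 43.3 and 45.4 TPM and at 15.1, 16.1 and 16.5 TPM. The lowest of the list was GRHL1, a relative of GRHL2, at 4.97, 2.33 and 3.02 TPM.

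Mesenchymal genes were not absent. Of 39 listed genes, 27 reached a mean of 1 TPM, 18 reached 10 TPM and 6 reached 100 TPM. Among all 19875 protein-coding genes, 12291, 8549 and 1504 reached these levels. The list's shares at 1 and 10 TPM were thus near those of all protein-coding genes. TGFBI, a secreted matrix protein, stood at 775, 1438.4 and 1339.5 TPM, and VIM, the intermediate filament vimentin, at 308, 693 and 531 TPM. SNAI2, a repressor of epithelial genes, stood at 27.3, 58.2 and 43.0 TPM, and the N-cadherin gene CDH2 at 17.5, 35.7 and 28.5 TPM. These 4 genes were all lowest in replicate 1. The related repressors ZEB1 and ZEB2 were low, at 2.75, 3.05 and 3.14 TPM and at 0.584, 0.760 and 0.354 TPM, and TWIST1 had 0 reads. The basement membrane collagens COL4A1 and COL4A2 were under 0.2 TPM in every library. Bulk libraries do not show whether epithelial and mesenchymal genes were read in the same cells, and fewer cells that express a gene cannot be told apart from less RNA of it per cell.

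Nearly all listed tumour suppressors were expressed, and the exceptions were few. Of 48 genes, 44 reached a mean of 1 TPM and 38 reached 10 TPM, with a median of 24.2 TPM. SMARCA4 stood at 73.2, 66.4 and 62.5 TPM and SMARCA2 at 16.2, 31.3 and 27.0 TPM. KEAP1 stood at 35.4, 33.3 and 34.8 TPM, STK11, a kinase upstream of AMPK, at 48.5, 42.9 and 47.4 TPM, and RB1, the retinoblastoma protein gene, at 24.8, 37.2 and 34.0 TPM. The 4 genes under 1 TPM were the receptor phosphatase PTPRD, the adhesion molecule CADM1, the GTPase-activating protein gene DLC1 and the endocytic receptor LRP1B. LRP1B had the lowest mean of the list, at 0.213, 0.0577 and 0.0433 TPM.

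CDKN2A, on chromosome 9 from 21967753 to 21995301, was the highest of the tumour suppressors at 243, 203 and 199 TPM. The gene encodes p16, a CDK4 and CDK6 inhibitor, from transcripts that start at exon 1 alpha, and ARF, an inhibitor of MDM2, from transcripts that start at exon 1 beta. Transcripts with the exon 1 beta start held 218, 153 and 187 TPM, or 89.8%, 75.2% and 93.9% of the gene. Those with the exon 1 alpha start held 1.38, 0.186 and 0.216 TPM. A further 23.6, 50.2 and 12 TPM fell on transcripts that start in or after exon 2, which both products share, and could not be given to either. The exon 1 beta class was the highest and the exon 1 alpha class the lowest in each of the 3 libraries. The neighbouring inhibitor gene CDKN2B, which encodes p15, stood at 55.7, 41.8 and 39.8 TPM, and MTAP, a metabolic gene beside it, at 32.3, 45.0 and 41.8 TPM.

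**Figure D3:**
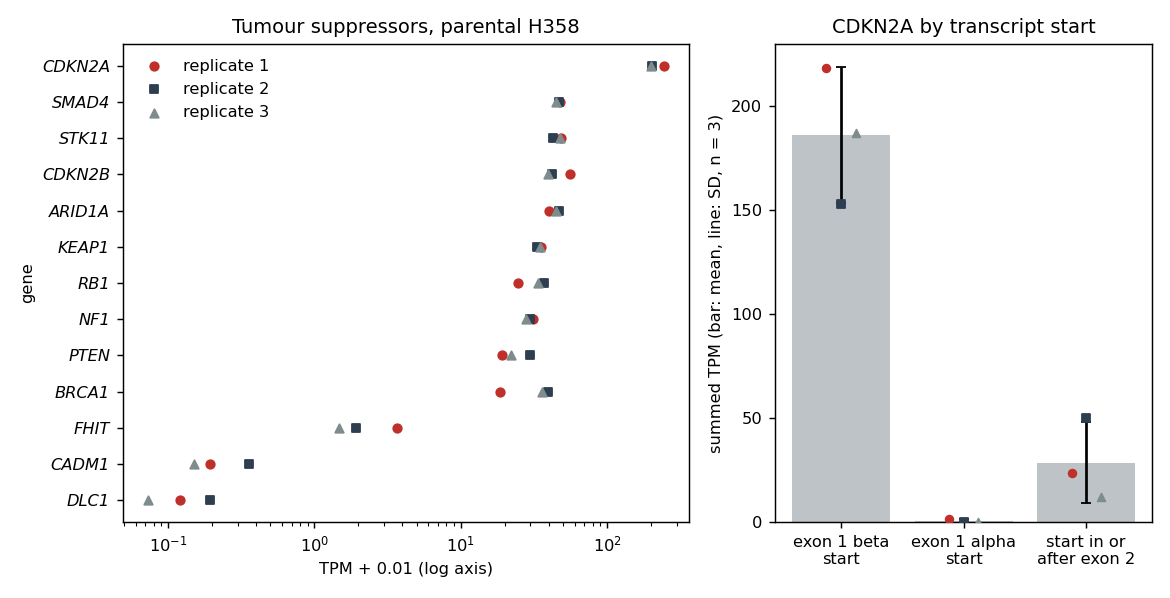
Left, TPM plus 0.01 (log axis) of 13 of the listed tumour suppressors in each of the 3 parental libraries; right, CDKN2A TPM summed by transcript start, with bars for means, lines for SD (n = 3) and points for libraries. CADM1 and DLC1 lie below 1 TPM in every library, and the exon 1 beta start holds most of the CDKN2A signal while the exon 1 alpha start lies at 0.186 to 1.38 TPM.

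The RAS and MAPK cascade was expressed throughout. All 25 listed genes reached a mean of 1 TPM and 20 reached 10 TPM. The GTPase genes HRAS and NRAS stood at 38.6, 48.4 and 42.4 TPM and at 33.7, 46.0 and 42.8 TPM. Their ranges over the libraries overlapped. BRAF, a kinase below RAS, was low in comparison at 7.24, 9.80 and 8.53 TPM, whereas MAP2K1, the MEK1 kinase below it, stood at 93.7, 108 and 105 TPM.

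All 22 genes known as output of this cascade also reached 1 TPM, and 18 reached 10 TPM. CCND1, cyclin D1, stood at 337, 406 and 335 TPM, and FOSL1, an AP-1 subunit, at 192, 308 and 218 TPM. The feedback phosphatase gene DUSP6 stood at 81.1, 80.7 and 60.4 TPM and the feedback inhibitor gene SPRY4 at 9.36, 9.34 and 7.50 TPM. The immediate early genes EGR1 and FOS were near the low end at 5.33, 4.78 and 4.37 TPM and at 3.49, 3.59 and 4.58 TPM.

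AREG, a ligand of the EGF receptor, stood above all receptors of that family in every library. Amphiregulin, which it encodes, had 461, 215 and 253 TPM, while EREG, epiregulin, stood at 60.1, 50.3 and 54.4 TPM, and TGFA at 56.6, 44.1 and 42.7 TPM. EGFR, their receptor, stood at 22.5, 29.9 and 28.8 TPM, ERBB2 at 60.4, 37.3 and 47.9 TPM and ERBB3 at 37.1, 23.2 and 27.7 TPM. AREG and ERBB2 were highest in replicate 1, and EGFR was lowest there. ERBB4 was under 1 TPM in every library. Of 40 receptor and other tyrosine kinases, 26 reached 1 TPM and 14 did not, a share near the 12291 of 19875 protein-coding genes. RET and FLT1 had 0 reads, and the receptors ALK and ROS1, which are rearranged in some lung tumours, were under 0.1 TPM. MET, the receptor of hepatocyte growth factor, stood at 101, 89.4 and 87.0 TPM, whereas its ligand gene HGF was at 0.217, 0.0925 and 0.117 TPM.

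NRF2 and its regulators were all expressed. Each of the 16 listed regulators reached 1 TPM, with NFE2L2 at 47.1, 59.5 and 51.3 TPM, KEAP1 as given above and CUL3, the scaffold of the KEAP1 ubiquitin ligase, at 58.1, 72.9 and 64.4 TPM. Of 46 NRF2 targets, 40 reached 1 TPM and 13 reached 100 TPM, with a median of 46.8 TPM. NQO1, a quinone reductase, stood at 580, 574 and 603 TPM, TXNRD1, thioredoxin reductase, at 387, 319 and 354 TPM, and GCLM, a subunit of the enzyme that starts glutathione synthesis, at 25.8, 30.5 and 29.04 TPM. The aldo-keto reductases were low: AKR1C1 stood at 1.45, 1.33 and 1.45 TPM and AKR1B10 at 2.28, 0.741 and 1.25 TPM. The target list thus spanned from FTH1, among the 20 most abundant genes, to NR0B1, UGT1A6, CYP4F11 and ALDH1A1 under 0.1 TPM on average. AKR1C genes are near-identical to each other, so their individual values are uncertain.

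Replicate 1 departed from both other parental libraries at 219 genes, and this was far more than for either other library. A gene departed where its scaled CPM plus 0.5 was at least 2-fold above, or at least 2-fold below, both others, among 11760 genes with at least 5 CPM in their highest library. Replicate 1 was above both at 186 genes (1.58%) and below both at 33 genes (0.281%). By the same rule replicate 2 stood alone at 5 genes above (0.0425%) and 5 below (0.0425%), and replicate 3 at 5 above (0.0425%) and 4 below (0.0340%). There is no test of 1 library against others of the same label, so these are descriptions. A gene that reached 5 CPM through 1 library alone had to be high there, so the counts by gene group below describe only the members at this level.

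Of the 186 genes above both others, 78 reached 5 CPM in replicate 1 only. FGF19, an endocrine growth factor of the bile acid circuit, was among these 78 at 14.2, 1.04 and 1.50 CPM. KRT4, a keratin of stratified mucosa, stood at 33.3, 5.35 and 6.42 CPM. GDF15, a stress-induced cytokine, stood at 72.5, 12.5 and 14.8 CPM, a log2 difference of 2.37 from the mean of replicates 2 and 3. SPP1, the matrix protein osteopontin, stood at 127, 28.96 and 31.2 CPM. The other 8 of the 12 genes with the largest departure upward were ADGRF5, an adhesion receptor, and NCMAP, MUC20, ST6GALNAC1, C4A, PSG3, DNAH17 and PADI3, with log2 differences from 2.07 to 2.93. C4A and PSG3 have near-identical copies, so their values are uncertain.

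The genes below both others were fewer. LAMA3, a laminin chain of the epithelial basement membrane, was among the 12 largest departures downward at 237, 688 and 542 CPM. B3GALT5, a galactosyltransferase, stood at 9.18, 27.3 and 26.5 CPM. THBS1, a matrix glycoprotein, stood at 136, 343 and 298 CPM, and CAV1 at 232, 481 and 482 CPM. Both were below replicates 2 and 3 by at least 2-fold, with log2 differences of -1.23 and -1.05, but fell outside the 12. Some of the 12 are uncertain: BCL2L2-PABPN1 and CFAP298-TCP10L are readthrough genes that share exons with their neighbours, CGB8 has near-identical copies, and 1 is a duplicate gene model of ATXN7.

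**Figure D4:**
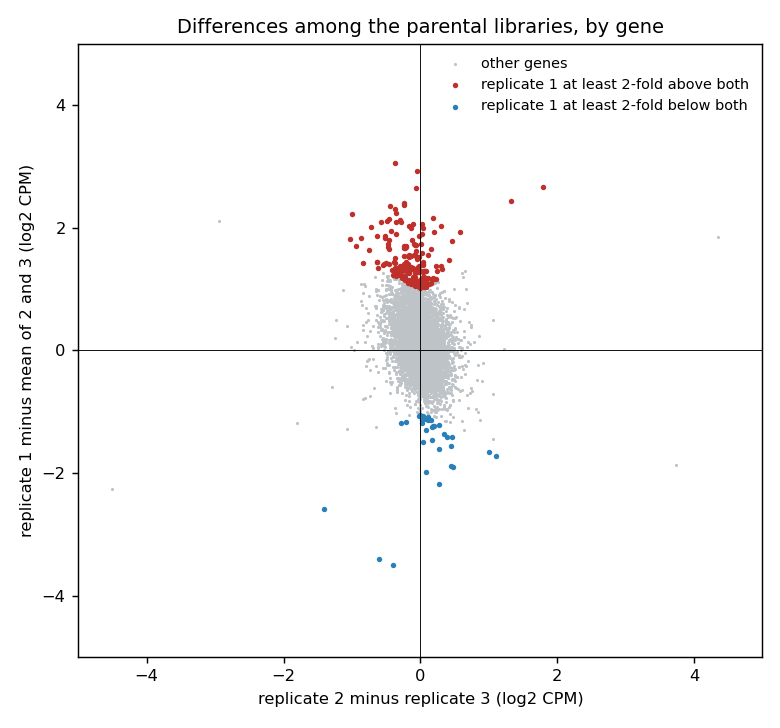
Each point is 1 of 11760 genes; the horizontal axis is replicate 2 minus replicate 3 and the vertical axis replicate 1 minus the mean of replicates 2 and 3, both in log2 CPM. The cloud is taller than it is wide, with 186 genes at least 2-fold above both other libraries in red and 33 at least 2-fold below in blue.

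By gene group, cell division genes were lower in replicate 1 in every case. All 26 cell division genes at this level were below both other libraries, by any amount, with a median log2 difference of -0.41, where 39.6% of all 11760 genes were below both and their median difference was 0.03. MKI67, the proliferation antigen Ki-67, stood at 221, 392 and 347 CPM, and RRM2, a subunit of ribonucleotide reductase, at 126, 251 and 232 CPM. None of the 26 passed the 2-fold rule. Of the 10 G1 regulators at this level, 9 were below both, with RBL2, an RB relative, as the exception.

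Glycolytic and hypoxia-linked genes were also lower in part. Of 25 such genes, 15 were below both and 8 were above both, with a median of -0.28. BNIP3, a mitophagy receptor, stood at 56.4, 143 and 126 CPM, and PDK1, the kinase that shuts pyruvate dehydrogenase, at 18.9, 48.6 and 43.3 CPM. These were the only members of the list at least 2-fold below both. LDHA, lactate dehydrogenase A, stood at 634, 1186.6 and 1128.0 CPM and PGK1, a kinase of glycolysis, at 899.9, 1400.8 and 1417.2 CPM. The glucose transporter gene SLC2A1 did not follow them, at 551, 561 and 537 CPM.

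The core letters of the hypoxia response element, ACGTG, were looked for in the 250 bases before the RefSeq start on GRCh38.p14, on both strands, with CACGTG counted on each strand. They were found at 10 of 24 matched promoters of this list (41.7%) and at 6501 of all 35116 promoters (18.5%). The list was chosen for hypoxia-linked genes, so its share describes the list and not these libraries. Gene sets were counted with a single promoter per gene, and the full set with every entry. For protein-coding genes at least 2-fold below both others in replicate 1, they were found at 4 of 22 matched promoters (18.2%). For those at least 2-fold above, they were found at 13 of 128 (10.2%). A match is not a bound site, and no match says only that the letters are not in this window. In BNIP3 and GAPDH the count of 2 came from a single CACGTG read on each strand. Windows are shown for 3 of the genes that were lower in replicate 1 and had a count above 1, with the matches in capitals. They lie at chrX:78103998-78104247 (plus strand) for PGK1, chr10:131981924-131982173 (minus strand) for BNIP3 and chr4:185396591-185396840 (plus strand) for ANKRD37, an ankyrin repeat protein induced in hypoxia.
PGK1: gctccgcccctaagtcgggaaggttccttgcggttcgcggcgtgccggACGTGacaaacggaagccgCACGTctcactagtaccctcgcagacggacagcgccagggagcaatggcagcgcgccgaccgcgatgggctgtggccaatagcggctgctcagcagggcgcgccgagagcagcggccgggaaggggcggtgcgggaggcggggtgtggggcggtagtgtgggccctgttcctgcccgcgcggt
BNIP3: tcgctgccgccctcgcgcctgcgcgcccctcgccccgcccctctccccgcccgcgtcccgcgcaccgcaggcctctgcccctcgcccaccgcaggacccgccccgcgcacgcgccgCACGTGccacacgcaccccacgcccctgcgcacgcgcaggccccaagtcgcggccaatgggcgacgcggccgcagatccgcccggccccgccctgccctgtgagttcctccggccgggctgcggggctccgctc
ANKRD37: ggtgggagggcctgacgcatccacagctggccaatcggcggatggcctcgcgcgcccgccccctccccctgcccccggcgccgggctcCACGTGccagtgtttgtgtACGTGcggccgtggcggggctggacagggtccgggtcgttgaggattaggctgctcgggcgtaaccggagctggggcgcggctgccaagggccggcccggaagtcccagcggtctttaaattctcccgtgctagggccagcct

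Secretory, epithelial, antigen presentation, NRF2 target and interferon response genes leaned the other way, and so did other lists. Median log2 differences were 0.37 for immune ligands, 0.34 for growth factor ligands and 0.30 for lung lineage factors. Those of p53 targets and receptor kinases were 0.26 and 0.20, while those of tumour suppressors and collagens were -0.08 and -0.08. Of 12 secretory genes at this level, 11 were above both others, where 46.2% of all 11760 genes were, with a median of 0.81. MUC5B stood at 85.9, 31.6 and 42.0 CPM, and WFDC2, a protease inhibitor of airway fluid, at 20.7, 9.89 and 8.85 CPM. In TPM, as given above, MUC5B was nearly the same in replicates 1 and 3. The median of the secretory list in TPM was 0.67 over 11 genes. Of the 52 epithelial genes, 36 were above both and 11 below both, with a median of 0.30, and 5 were at least 2-fold above: CLDN3, PRSS8, TJP3, CLDN1 and GRHL1. CLDN3, a claudin, stood at 62.3, 20.1 and 22.5 CPM. Of 13 antigen presentation genes, 12 were above both with a median of 0.60; HLA genes vary between people and were counted against the reference, so their levels are uncertain.

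Of 35 NRF2 targets at this level, 27 were above both and 5 below both, with a median of 0.28, and only GPX2, a glutathione peroxidase, was 2-fold above. SLC7A11, the cystine transporter, went against the list at 55.2, 118 and 110 CPM. Of 31 interferon response genes, 19 were above both and 2 below both, with a median of 0.26, and IFITM1 and IFITM2, related membrane proteins, passed the 2-fold rule.

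Mesenchymal and RAS cascade genes were mixed. Of 24 mesenchymal genes, 9 were above and 12 below, with a median of -0.12. The cascade from RAS to ERK had 10 genes above and 7 below of 24, with a median of 0.03 that turned to -0.07 in TPM.

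**Figure D5:**
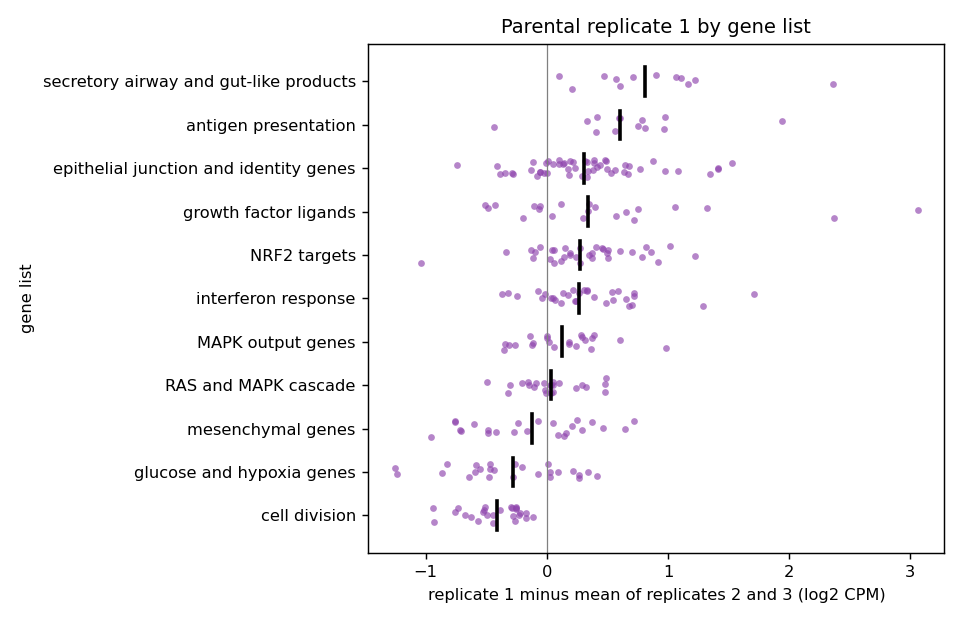
Replicate 1 minus the mean of replicates 2 and 3 (log2 CPM, horizontal axis) for members of 11 gene lists with at least 5 CPM in the highest library; each point is a gene and each black bar a list's median. All cell division genes lie left of 0, and the secretory genes lie right of 0 with a median of 0.81.

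Technical measures moved with the departure. Reads of mitochondrial protein-coding genes made up 3.11%, 2.53% and 2.40% of replicates 1, 2 and 3, and ribosomal protein reads 5.80%, 4.97% and 5.25%. Replicate 1 was also the shallowest library. The median log2 difference rose with the GC content of the transcript, from -0.06 in the lowest of 5 equal classes of genes by GC to 0.21 in the highest class, while replicate 2 minus replicate 3 went from 0.05 to -0.04. With the median of each GC class removed, an alternative chosen after seeing the data, 196 genes departed, 153 above and 43 below. The medians of cell division and of glycolytic and hypoxia genes were then -0.45 and -0.36. Those of secretory, epithelial, antigen presentation, NRF2 target and interferon response genes were 0.72, 0.20, 0.53, 0.25 and 0.30. Markers of other cell types also differed: summed fibroblast marker levels were 45.9, 26.8 and 22.9 TPM, mostly COL1A1 and LUM, those of blood cells 18.03, 28.7 and 19.2 TPM, and those of endothelium 1.59, 1.86 and 1.30 TPM. The part of depth, mitochondrial reads and these markers in the departure was not tested.

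The parental levels differed from those of the knockout libraries for a large share of genes. The targeted genes were checked first: SMARCA4 stood at 73.2, 66.4 and 62.5 TPM in parental and at 10.3, 8.54 and 9.23 TPM in BRG1 knockout libraries, and SMARCA2 at 16.2, 31.3 and 27.0 TPM in parental and at 5.03, 5.93 and 5.48 TPM in BRM knockout libraries. Each was lower in its knockout in every library, with log2 changes of -3.29 ± 0.14 (SE; edgeR adjusted p = 4.1e-07) and -2.36 ± 0.23 (edgeR adjusted p = 0.00011). With edgeR's quasi-likelihood test over 18205 genes and a Benjamini-Hochberg adjusted p threshold of 0.05, 43.5% of genes passed in BRG1 knockout against parental (21.6% higher and 21.9% lower in the knockout) and 37.4% in BRM knockout (21.0% higher and 16.4% lower). Without parental replicate 1 the shares higher and lower were 20.3% and 19.2% in BRG1 knockout, and 20.6% and 15.1% in BRM knockout. Without parental replicate 2 they were 16.4% and 17.4% in BRG1 knockout, and 13.1% and 11.1% in BRM knockout. Without parental replicate 3 they were 16.0% and 16.8% in BRG1 knockout, and 13.2% and 11.2% in BRM knockout. Both comparisons share the parental libraries.

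MET stood at 25.2, 19.5 and 38.1 TPM in BRG1 knockout, below all parental libraries, with a log2 change of -1.41 ± 0.17 (SE; edgeR adjusted p = 9.9e-05). In BRM knockout it stood at 118, 84.5 and 114 TPM, which overlapped with the parental range (edgeR adjusted p = 0.18).

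RB1 stood at 14.2, 13.4 and 12.8 TPM in BRM knockout, below every parental library, with a log2 change of -1.20 ± 0.28 (edgeR adjusted p = 0.0073). In BRG1 knockout it stood at 15.2, 11.4 and 33.7 TPM and did not pass (edgeR adjusted p = 0.13), but passed at -1.10 without replicate 3 of that knockout. CDKN2A stood at 290, 413 and 289 TPM in BRG1 knockout, above every parental library, with a log2 change of 0.91 ± 0.22 (edgeR adjusted p = 0.0073), which was 0.54 without replicate 2 of that knockout. In BRM knockout it stood at 121, 133 and 152 TPM, a log2 change of -0.62 ± 0.22 (edgeR adjusted p = 0.049), and this call was lost when any 1 of the 3 parental or 3 BRM knockout libraries was left out, with values from -0.70 to -0.50.

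Epithelial genes were lower in BRG1 knockout. Of 52 epithelial genes, 48 (92.3%) were lower there by edgeR, where 21.9% of all genes were, and 45 were without parental replicate 1. In BRM knockout 11 of the 52 (21.2%) were higher, close to the 21.0% of all genes, and 2 (3.85%) were lower, where 16.4% of all genes were. The count higher in BRM knockout was 13 without parental replicate 1, but 3 without parental replicate 2 and 4 without parental replicate 3. EPCAM stood at 32.3, 35.9 and 8.66 TPM in BRG1 knockout, a log2 change of -4.09 ± 0.52 (edgeR adjusted p = 0.00022). Of 25 RAS and MAPK cascade genes, 3 were higher and 4 lower in BRG1 knockout, and 5 were higher and 4 lower in BRM knockout, shares at or below those of all genes in each direction. Of the 100 most abundant protein-coding genes of the parental line, 46 were higher in BRG1 knockout, where 21.6% of all genes were. The counts were 36 and 34 without parental replicates 2 and 3, where 16.4% and 16.0% of all genes were higher. The other shares were near or below those of all genes: 16 were lower in BRG1 knockout (21.9% of all genes), 17 were lower in BRM knockout (16.4%) and 10 were higher in BRM knockout (21.0%). Without parental replicate 2 these counts were 9, 11 and 4, where 17.4%, 11.1% and 13.1% of all genes were called in the same directions. Without parental replicate 3 they were 10, 12 and 5, where 16.8%, 11.2% and 13.2% of all genes were. These 100 genes were ranked on the parental libraries themselves, and ribosomal protein reads made up 4.97% to 5.80% of parental reads and 10.2%, 10.7% and 5.82% of those in the BRG1 knockout libraries; the part of that difference in the count was not tested.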

How the data were processed

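RNA sequencing of 9 H358 libraries was used, 3 each of parental, BRG1 knockout and BRM knockout cells, grouped by the labels' genotype. The authors deposited Salmon transcript tables with TPM and expected counts (estimated reads that need not be whole). Salmon, DESeq2 and hg38 are named in the submitters' processing notes; their versions, the index and the strand setting are not given. TPM and expected counts were summed over the transcripts of each GENCODE 29 gene: 203746 of 203835 transcripts were given a gene, 202888 of them by exact identifier. Expected counts were rounded to whole numbers for edgeR 4.0.16 in R 4.3.3, with filterByExpr, TMM factors, 1 mean per group over all 9 libraries, glmQLFit (robust) and glmQLFTest, two-sided; standard errors are the log2 change divided by the square root of F. The scripts were tested on simulated data. DESeq2 1.42.0, other scalings, filters, pseudocounts (0.1 and 2 CPM), CPM minimums (1 and 20) and leaving out each library were alternatives. Counting listed genes without a parental library was added after seeing the data.

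The members and the 27 gene lists (666 different genes) were chosen with earlier results of these data known. Genes were named by rule: the 20 most abundant, the highest, lowest and defining members of each list, and the 12 largest departures of replicate 1 in each direction. THBS1 and CAV1 and single values picked within lists were added after their values were seen. Fragments averaged 280, 272 and 297 bases in the parental libraries. Depth limits low genes: 3 reads over the parental libraries equal 0.0274 CPM. Some listed genes are not reported here.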

Additional observations from a re-analysis of the deposited data

How the results depend on the processing

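The count of genes of at least 1 TPM ranged from 14711 to 14751 when a parental library was left out, and the counts called in either knockout against parental stayed within 1.5 times of the reported value except for genes higher in BRM knockout. That count was 3814, and ranged from 2457 to 4033 when a library was left out, with 2457 without parental replicate 2 and 2469 without parental replicate 3. Whether replicate numbers paired the samples could not be told. Same-number correlations of deviations ran from -0.08 to 0.17, and different-number correlations were not computed to set beside them. With replicate number as a block, 7486 genes were called in BRG1 knockout (3641 higher, 3845 lower). In BRM knockout 6392 were called (3622 higher, 2770 lower). Of the genes named with a test, only the BRM knockout call of CDKN2A was lost under a block (-0.63) or a stricter filter (-0.60).

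The number of genes at which replicate 1 departed depended on the level and scale. With a minimum of 20 CPM it was 88, of which 76 above and 12 below; with a pseudocount of 2 CPM it was 142, of which 17 below; in TPM 57 were below, and with a minimum of 1 CPM 51 were below. The cause was not tested. Without replicate 1, 17 of 27 lists kept the same count of genes at 1 TPM and the other counts moved by 1 gene. Low depth limits genes near 0, where 1 to 3 reads decide a value.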
